A study of Mus musculus with 2 samples.

Results

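The 40 genes described here encode core and accessory components of Polycomb repressive complexes 1 and 2 (PRC1 and PRC2 in the plots), and were read on microarrays from mouse retina. They were chosen by name, as non-control probes whose annotated RefSeq transcript belongs to a listed component. Samd7 and its relative Samd11 were left out. All 40 had a named probe, 62 probes in all, out of 21367 named genes on the array.

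Retinas were dissected from mice at postnatal day 12 and total RNA was labelled with the dye Cy3 for 1-colour Agilent arrays. The groups were Samd7 knockout (KO, genotype given as Samd7 KO) and wild type (WT), with 1 array each. Neither the strain, the deleted part of Samd7 nor the number of animals behind an RNA sample is given in the sources used here. With 1 array per group there is no spread between animals and no p-value, and each difference compares these 2 arrays.

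Polycomb complex 1 carries a RING-type ubiquitin ligase that marks histone H2A, and Polycomb complex 2 carries a methyltransferase that marks histone H3. Both keep developmental genes silent, and both exist in several forms built from paralogous subunits. SAMD7 is a sterile alpha motif (SAM) protein of photoreceptors that has been described as a partner of complex 1, which also holds PHC proteins with a SAM domain. The comparison therefore asks whether RNA for the complexes themselves differed between the genotypes.

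Signals are given as normalised log2 signal, in which 0 is the 75th percentile of the array. Differences are log2 signal on the array labelled Samd7 KO minus log2 signal on the array labelled WT. Probes differ in brightness for reasons of their own sequence, so levels are not compared between genes. Each difference is set beside a pair of technical errors. The scanner software's own error estimate gave an error of 0.20 on the log2 scale for most members. It was 0.204 for every member with a signal of at least 0. There it acts as a near-fixed threshold, not as a spread measured for each gene. Probes spotted repeatedly gave an SD of 0.08 where the signal was at least 0, 0.11 between -2 and 0, and 0.20 between -4 and -2. Both errors come from spots within an array. Neither includes variation between animals, or between RNA samples in preparation, labelling or hybridisation.

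The targeted gene, Samd7, had a normalised log2 signal of 6.47 on the KO-labelled array and 4.68 on the WT-labelled array, a difference of 1.78. This goes against the label unless the only named probe lies outside the deleted part, in which case it checks nothing. The arrays are called KO-labelled and WT-labelled for that reason, and every direction below rests on the labels. All 11 photoreceptor markers and all 14 markers of other retinal cells were above background on both arrays, as the tissue label states. Spots well above background made up 60.9% of non-control spots on the KO-labelled array and 60.3% on the WT-labelled array, and no spot was saturated.

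The Polycomb components were near level between the arrays, with 1 exception past a log2 difference of 0.32, the smallest threshold used. E2f6, a repressive E2F factor that works with a variant form of complex 1, was 1.38-fold higher on the KO-labelled array. No member reached 1.5-fold in either direction. The lowest differences were those of Bcor (-0.30) and Pcgf2 (-0.28). Cbx7, a chromodomain subunit, was not well above background on either array, which leaves 39 members measured, all of them on both arrays.

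Across the 39 members the median difference was -0.007, against -0.02 over the 15937 named genes above background on at least 1 array. The KO-labelled array was higher for 19 members and lower for 20. Over all named genes it was higher for 6726 and lower for 9188. The median size of a difference, regardless of sign, was 0.09 for the members and 0.09 for all named genes. Among genes with a mean signal of 0 or more, which hold 27 of the members, it was 0.09 for the members and 0.07 for the 8728 genes.

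At a log2 difference of 0.32, 1 of 39 members was higher and 0 were lower. The same threshold was passed by 6.11% of named genes in the higher direction and 7.59% in the lower. At 1.5-fold 0 members were called in either direction, where 2.96% of named genes were higher and 3.2% lower, and at 2-fold the shares were 1.57% and 1.37%. In the signal range that holds all measured members (a mean of -4 or more, set after their signals were seen), 4.51% of 14247 genes were higher by at least 0.32 and 4.68% lower. There the shares were 2.13% higher and 1.48% lower at 1.5-fold, and 1.09% higher and 0.569% lower at 2-fold. The members' counts were thus no larger than these background shares at any of these thresholds. Among genes with a mean signal of 0 or more, 1 of 27 members was higher by at least 0.32 and 0 were lower. In that range 295 of 8728 named genes were higher and 204 lower, so the share of members was near that of named genes.

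**Figure D1:**
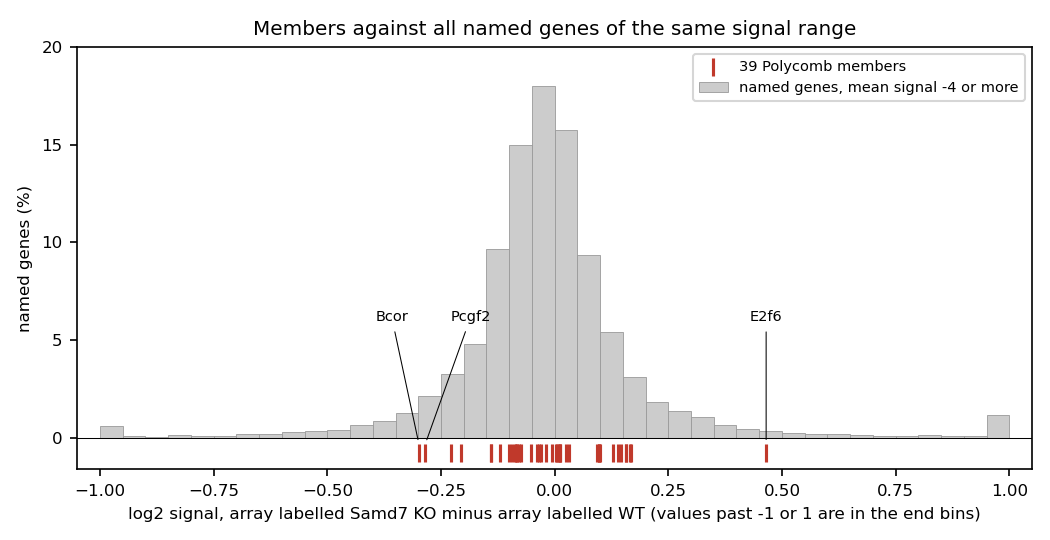
Distribution of the log2 difference (KO-labelled minus WT-labelled array, horizontal axis) for named genes with a mean signal of -4 or more, as a percentage of genes per bin (vertical axis), with the 39 measured Polycomb members as red ticks below. The members lie between -0.30 and 0.47, and E2f6 stands apart from the others.

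Only E2f6 differed by more than 2 times the scanner software's error. That rule was met by 3.09% of named genes in the higher direction and 3.19% in the lower, and by 2.98% and 2.77% in the members' signal range. Under the narrower SD of repeated spots, 3 members were higher by over 2 times the SD (E2f6, Jarid2 and Cbx6) and 4 were lower (Bcor, Pcgf2, Phc2 and Ezh2). The background for this rule was 7.23% of named genes higher and 9.28% lower, or 7.57% higher and 9.6% lower in the members' signal range. Of the members 7.69% were higher and 10.3% lower. The share of members past the repeated-spot error was therefore close to that of any named gene.

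The 3 members farthest from level differed in the number of CG dinucleotides upstream, and their sequences are shown for that reason. Each run is the 250 bases before the transcript start in RefSeq's promoter table (assembly GRCm38.p6), written 5′ to 3′ on the gene's strand, with every CG dinucleotide in capitals. The E2f6 sequence lies at chr12:16810715-16810964 on the plus strand. The Bcor sequence, from the start with the most CG dinucleotides of 2 listed, lies at chrX:12160347-12160596 on the minus strand. The Pcgf2 sequence lies at chr11:97699649-97699898 on the minus strand.
E2f6: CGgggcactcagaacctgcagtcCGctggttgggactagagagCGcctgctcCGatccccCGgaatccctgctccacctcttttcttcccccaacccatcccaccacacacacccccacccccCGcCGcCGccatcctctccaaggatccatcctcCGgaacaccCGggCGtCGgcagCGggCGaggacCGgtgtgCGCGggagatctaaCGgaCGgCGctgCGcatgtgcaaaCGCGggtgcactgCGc
Bcor: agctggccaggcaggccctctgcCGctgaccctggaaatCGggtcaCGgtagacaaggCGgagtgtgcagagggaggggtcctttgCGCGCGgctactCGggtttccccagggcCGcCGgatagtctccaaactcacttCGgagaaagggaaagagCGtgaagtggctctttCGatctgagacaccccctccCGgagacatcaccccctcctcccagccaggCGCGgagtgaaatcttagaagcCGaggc
Pcgf2: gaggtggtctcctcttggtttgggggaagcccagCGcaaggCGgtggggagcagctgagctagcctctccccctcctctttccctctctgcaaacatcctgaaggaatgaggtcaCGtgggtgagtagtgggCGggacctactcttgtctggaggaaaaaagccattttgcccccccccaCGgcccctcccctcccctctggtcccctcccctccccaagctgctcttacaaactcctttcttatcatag
E2f6 held 24 CG dinucleotides in this window, Bcor 17 and Pcgf2 5. Of the 40 members 35 had a promoter in the table, including Cbx7, which was not above background. Taking the listed start with the most CG dinucleotides for each gene, the members had a median of 20 (range 5 to 45), against 15 for 12620 named genes above background with a promoter entry and 6 for all 27025 genes with an entry. Pcgf2 thus had the lowest count among the members. The E-box CACGTG, which reads the same on both strands, occurred in at least 1 listed start of 9 members (25.7%), against 9.29% of named genes above background. This motif itself holds a CG dinucleotide, and the shares were not matched for CG count or number of starts. The E-box was found for Pcgf2 but not for E2f6 or Bcor. These are descriptions of the sequence and say nothing about which factors bind there.

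Complex 1 is built around a RING ligase paired with a PCGF protein, and these core subunits were near level. Ring1, one of the ligases, had a log2 signal of -0.28 on the KO-labelled array and -0.26 on the WT-labelled array. Rnf2, the paralogue that provides most of the ligase activity in mouse embryonic stem cells, had 2.34 on the KO-labelled array and 2.18 on the WT-labelled array, a difference of 0.16. That is less than the scanner error and just under 2 times the repeated-spot SD.

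The 6 PCGF subunits decide which form of complex 1 is assembled. Bmi1, which defines a canonical form and sustains stem cell renewal, had 2.69 on the KO-labelled array and 2.73 on the WT-labelled array, and its other probe gave a difference of -0.07. Pcgf2, its close paralogue, had -1.94 on the KO-labelled array and -1.65 on the WT-labelled array. The other Pcgf2 probe gave 0.06 for a signal of -2.76 on the KO-labelled array and -2.82 on the WT-labelled array, so the gene's probes disagreed in sign.

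The PCGF proteins of variant complexes were close to 0 as well. Pcgf1, the partner of KDM2B and BCOR, was at 0.15, with 0.42 on the KO-labelled array and 0.28 on the WT-labelled array. Pcgf6, the partner of E2F6 and MGA, was at 0.02, well inside the scanner error. Pcgf3 was at -0.04 and Pcgf5 at -0.08, with -0.05 in the other Pcgf5 probe.

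CBX chromodomain proteins bind methylated histone H3 and bring canonical complex 1 to its targets. All 3 measured members were on the higher side in the KO-labelled array, each by less than the scanner error. Over all named genes 6726 of 15937 were higher, and a side shared by 3 genes is not read as a result. Cbx6 had 4.05 on the KO-labelled array and 3.88 on the WT-labelled array, and its 3 probes lay within 0.02 of each other, from 0.17 to 0.18. Cbx2 had -1.33 on the KO-labelled array and -1.47 on the WT-labelled array. Cbx8 had -0.31 on the KO-labelled array and -0.40 on the WT-labelled array.

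PHC proteins join canonical complexes to each other through their SAM domain. The 3 PHC genes were all on the lower side in the KO-labelled array, with a median difference of -0.14. Over all named genes 9188 of 15937 were lower, so a side shared by 3 genes is not read as a result here either. Phc2 had 4.28 on the KO-labelled array and 4.51 on the WT-labelled array, a difference of -0.23 that slightly exceeds the scanner error of 0.20. Phc1 had 0.75 on the KO-labelled array and 0.89 on the WT-labelled array. Phc3 had 1.07 on the KO-labelled array and 1.21 on the WT-labelled array.

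Phc1 and Phc3 each lay at -0.14, within the scanner error. The second Phc3 probe was not well above background on either array. With the mean over both of its probes, Phc3 took the opposite sign at 0.18, because that dim probe enters the mean.

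Further proteins with SAM or malignant brain tumour (MBT) domains were close to 0. Scmh1, a relative of the fly Polycomb protein Scm, was at 0.13, with 0.58 on the KO-labelled array and 0.45 on the WT-labelled array. Scml2 was at 0.01 and Scml4 at -0.05. Sfmbt1 was at 0.01, with 0.09 in a probe for another transcript, and Sfmbt2 at 0.03, with 0.06 in its other measured probe.

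**Figure D2:**
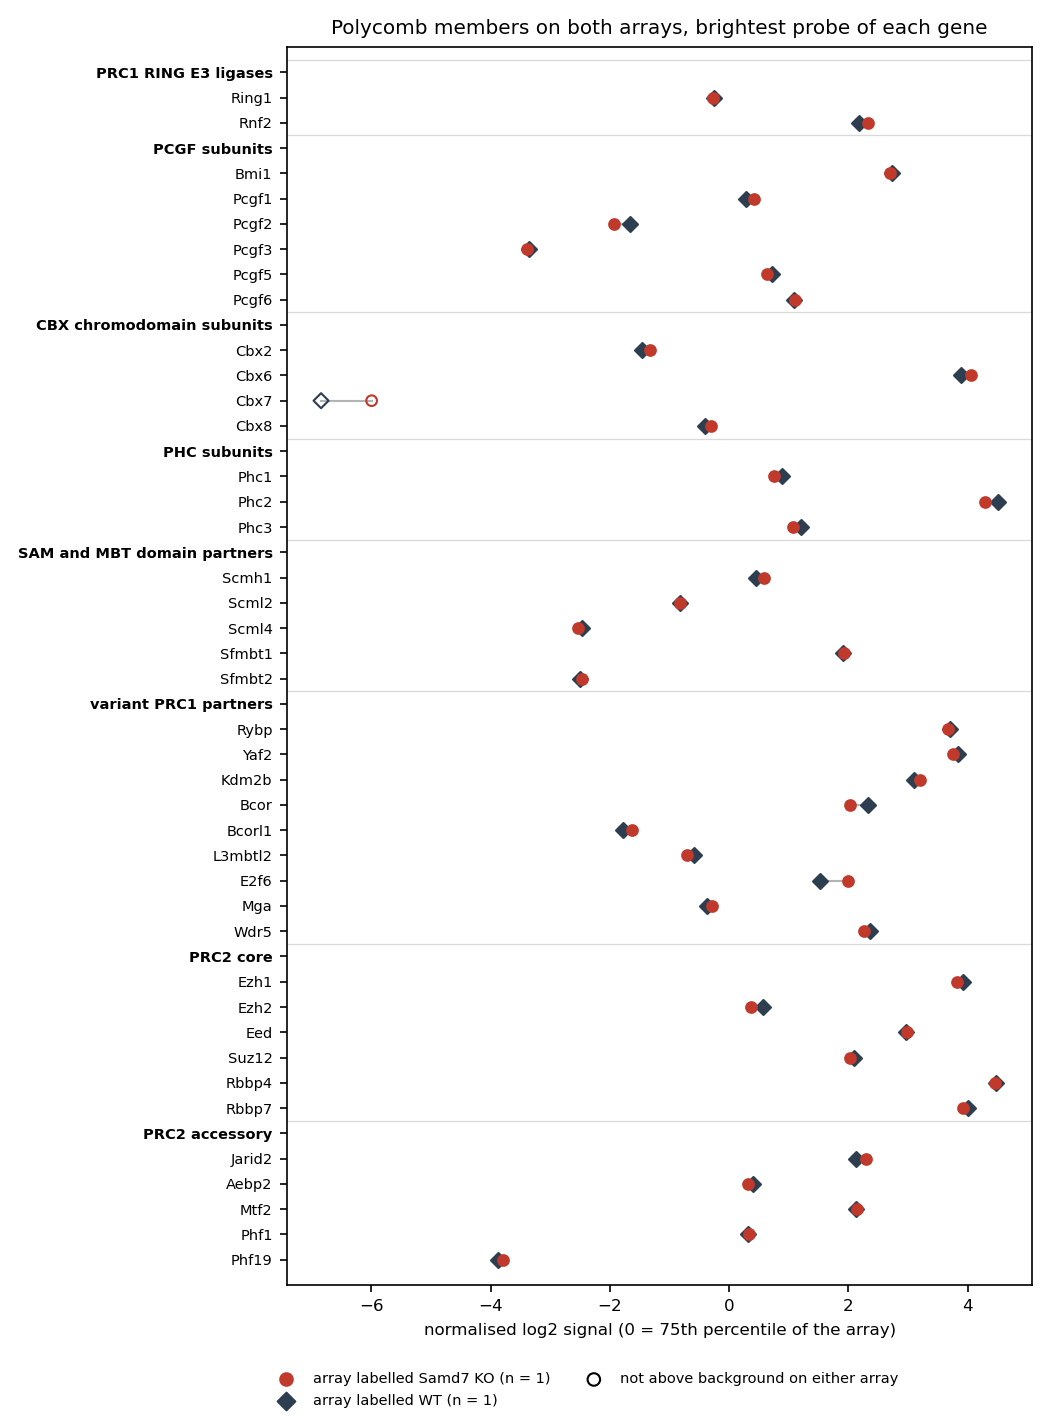
Normalised log2 signal (horizontal axis) of the brightest probe of each of the 40 members on the array labelled Samd7 KO (red circles) and the array labelled WT (dark diamonds), grouped by role, n = 1 array each. The 2 symbols overlap or touch for most members, E2f6 shows the widest gap among measured members, and Cbx7 (open symbols) was not above background on either array.

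The partners of variant complex 1 held both the highest and the lowest member. Before scaling, E2f6 had a processed intensity of 2209 on the KO-labelled array and 1660 on the WT-labelled array. The 75th percentiles used for scaling were 554 and 574, so unscaled intensities lean slightly towards the WT-labelled array. After scaling, the log2 difference of E2f6 was 0.47. This is over 2 times the scanner error and lies beyond that of 95.1% of named genes with a mean signal of -4 or more. This rank is that of the largest difference among 39 members, not of a gene picked beforehand. The E2f6 value rests on 1 probe, and it stayed between 0.46 and 0.50 under every scaling and background correction run.

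The other components of the E2F6 complex stayed within the scanner error. Mga, a scaffold with T-box and helix-loop-helix DNA-binding domains, had -0.28 on the KO-labelled array and -0.38 on the WT-labelled array. L3mbtl2, an MBT protein of the same complex, was at -0.12, and Wdr5, an adaptor also used by activating methyltransferase complexes, was at -0.09. Outside the 40 members, the DNA-binding partner Max was at -0.19 and the dimerisation partner Tfdp1 at 0.03.

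Bcor, a corepressor of the KDM2B-containing complex, had 2.03 on the KO-labelled array and 2.33 on the WT-labelled array, in a probe annotated to a non-coding transcript of the gene. A second probe, for a coding transcript, had 2.0 on the KO-labelled array and 2.25 on the WT-labelled array. The probes thus gave -0.30 and -0.25, both past the scanner error of 0.20 and neither past 2 times that error. Its paralogue Bcorl1 lay on the other side at 0.16, but a dimmer probe of Bcorl1 gave -0.09.

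Kdm2b, a CXXC protein that brings its complex to unmethylated CpG islands, was at 0.10, with 3.20 on the KO-labelled array and 3.10 on the WT-labelled array, and its other probe gave 0.04. Rybp, which stimulates the ligase in variant complexes, was at -0.03, and its paralogue Yaf2 at -0.09 with -0.12 in its other probe. Bcor, Bcorl1, Scml2 and Rbbp7 lie on the X chromosome, and these 4 had a median of -0.03 with 2 higher and 2 lower. Xist, the RNA of the inactive X chromosome, was at -0.12, and the Y-linked Ddx3y at 0.05, and both were above background on both arrays.

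The core of complex 2 was slightly to the lower side in 5 of 6 genes, where 9188 of 15937 named genes were lower. Of these 5, Ezh1 took the opposite sign with the mean over probes. Rbbp4, at -0.007, did so under most alternative settings. All core genes but Ezh2 lay within the scanner error. Ezh2, the methyltransferase of dividing cells, had 0.37 on the KO-labelled array and 0.57 on the WT-labelled array. Its difference of -0.21 is about the size of the scanner error and is over 2 times the repeated-spot SD. Of 22 listed proliferation genes 20 were measured, with a median of -0.13, 5 of them higher and 15 lower. Past 0.32 there were 1 higher (Tyms at 0.36) and 6 lower, against 6.11% and 7.59% of all named genes. The lowest, Top2a at -1.02, lay within 2 times the repeated-spot SD of 0.58 at its signal and beyond 2 times its scanner error of 0.33. The summed intensity of the proliferation genes, before scaling, was 13808 on the KO-labelled array and 15629 on the WT-labelled array. Their part in the Ezh2 value was not tested.

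Ezh1, the paralogue that predominates in non-dividing cells, had 3.82 on the KO-labelled array and 3.92 on the WT-labelled array, and its other probes gave 0.03 and 0.09. The scaffold subunits were level. Eed, which reads the methyl mark, had 2.98 on the KO-labelled array and 2.97 on the WT-labelled array. Suz12, needed for a stable complex, was at -0.07. The histone chaperones Rbbp4 and Rbbp7 were at -0.01 and -0.08, and a dim second Rbbp4 probe gave 0.21, while the second Rbbp7 probe gave -0.09.

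Accessory subunits split complex 2 into alternative forms and help to place it on DNA. Jarid2, which marks one form, was the highest of them at 0.17, with 2.30 on the KO-labelled array and 2.13 on the WT-labelled array. Aebp2, of the same form, lay at -0.09, with -0.04 in its other probe. The Polycomb-like proteins Mtf2 (0.004), Phf1 (0.009) and Phf19 (0.10), which belong to the other form, differed by less than their errors, with Phf19 at a signal of -3.78 on the KO-labelled array and -3.88 on the WT-labelled array. A second Mtf2 probe was not well above background on either array.

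**Figure D3:**
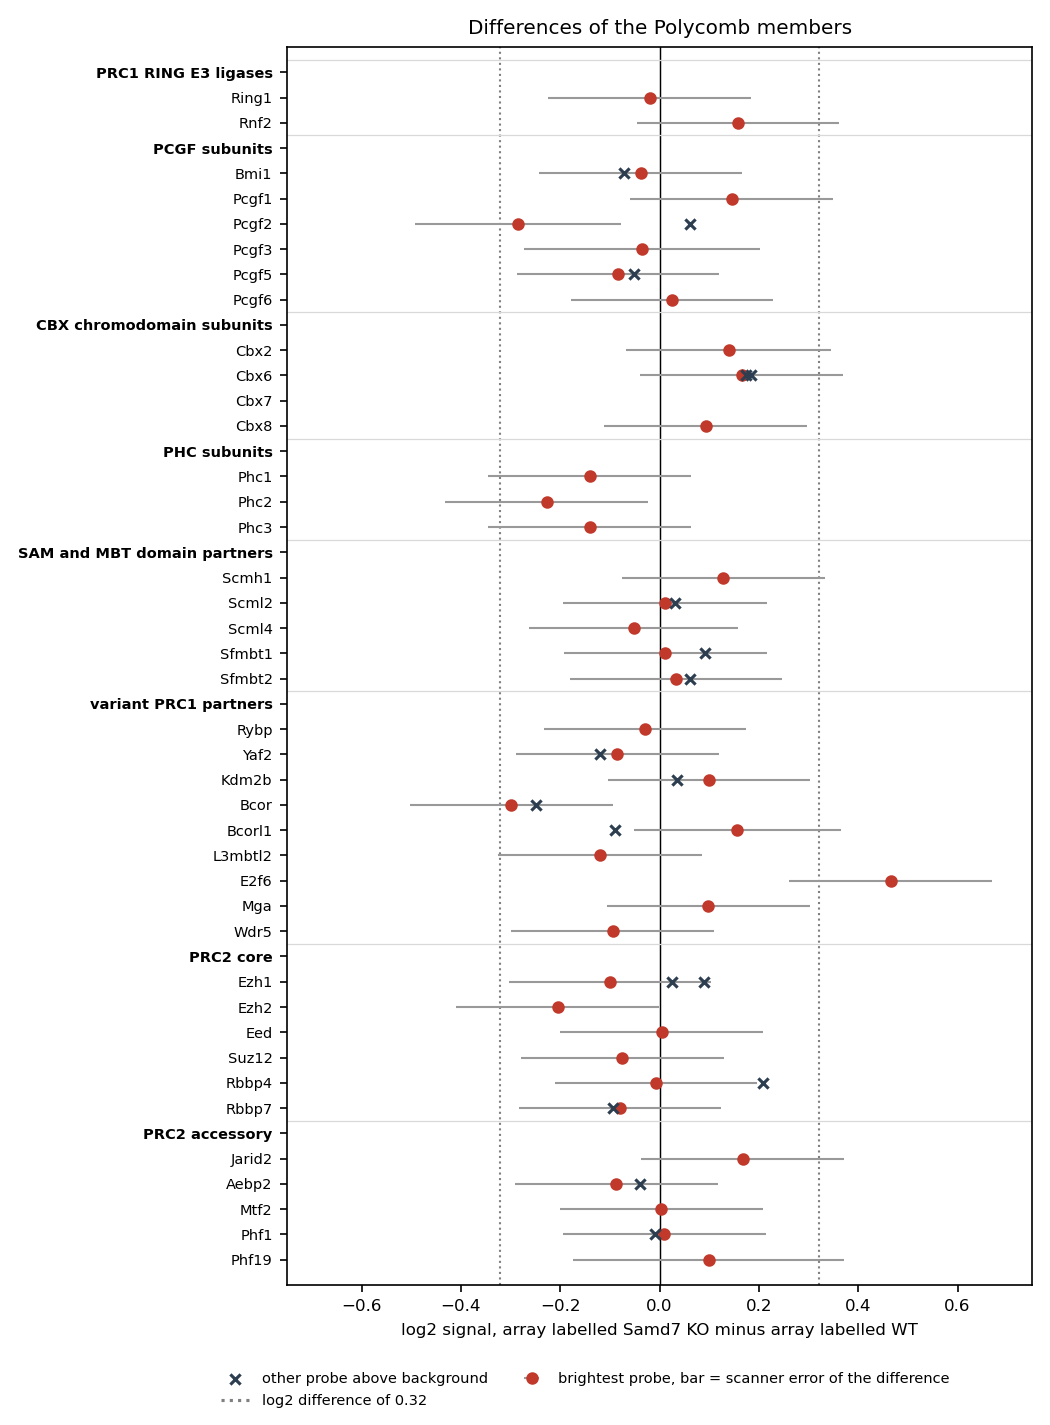
Log2 difference between the arrays (horizontal axis, KO-labelled minus WT-labelled) for the 39 measured members by role. Red circles are the brightest probes with the scanner software's error as bars, crosses are the other probes above background, and dotted lines mark a log2 difference of 0.32 in each direction. Only E2f6 lies outside the dotted lines, and the crosses of Pcgf2, Bcorl1, Ezh1, Rbbp4 and Phf1 fall on the other side of 0 from their circle.

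Probes of the same member lay close together. For 16 members several probes could be compared, and the median range of their differences was 0.04. The same median was 0.10 over the 4131 named genes with several such probes, which were not matched to the members' signals. The widest range was that of Pcgf2 at 0.35, and the signs were opposed in 5 of the 16 members, against 1589 of the 4131 genes.

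Genes that work with or against the complexes were likewise near level. Of 19 measured genes associated with complex 1, none passed 0.32 in either direction, and their median was -0.04. Over all named genes 6.11% were higher and 7.59% lower by that much. With a mean signal of 0 or more, 295 and 204 of 8728 genes were. Lists this short would hold few such genes at these shares. The 19 genes ran from Max (-0.19) and Dcaf7 (-0.16), a scaffold of variant complexes, to Ogt (0.18), the O-GlcNAc transferase. None of the 8 Polycomb antagonists passed 0.32 either. The highest of these was Kdm6b (0.20), an eraser of the complex 2 mark, and the lowest was Asxl3 (-0.17), a cofactor of the H2A deubiquitinase BAP1.

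Among 11 measured Trithorax and COMPASS genes, which place the opposing activating mark, 0 passed 0.32. Few would in so short a list at the shares of all named genes. Setd1a, a methyltransferase, was the highest at 0.26 and Dpy30, a shared subunit, the lowest at -0.20.

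Every list of cell type markers had a median farther from 0 than the Polycomb components (-0.007), and those of lens and pigment epithelium were the largest. With 19 Polycomb members higher and 20 lower, a median near 0 does not make them steadier than the markers. Regardless of sign, the median size was 0.09 for the members and 0.05 for the 14 markers of other retinal cells. Those 14 markers had a median of 0.02 and 0 past 0.32, which 6.11% of named genes passed upward and 7.59% downward. The 8 microglia markers had a median of -0.12, as did the 8 markers of endothelium and pericytes, with 1 gene of each list higher by at least 0.32 and 0 lower. The 5 measured red cell markers had a median of 0.30, with 1 higher and 1 lower past 0.32. The 13 lens markers had a median of 1.55, with Mip and Lim2 entered as lower bounds, and 10 were at least 2-fold higher on the KO-labelled array. Their summed intensity before scaling was 11390 on the KO-labelled array and 2891 on the WT-labelled array, where Mip and Lim2 were not well above background. The 9 measured pigment epithelium markers had a median of -0.39. Their summed intensity before scaling was 13045 on the KO-labelled array and 18274 on the WT-labelled array.

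Photoreceptor markers had a median of -0.21 over 11 genes, and 9 of them were lower on the KO-labelled array. Over all named genes, 9188 of 15937 were lower. Past a log2 difference of 0.32 there were 0 markers higher and 1 lower, Gnat1, rod transducin, at -2.13. The other photoreceptor markers lay between -0.28 (Sag) and 0.06 (Otx2). In whole retina, fewer cells of a type and less RNA per cell cannot be told apart. The part of these other cell types in the members' small differences was not tested.

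**Figure D4:**
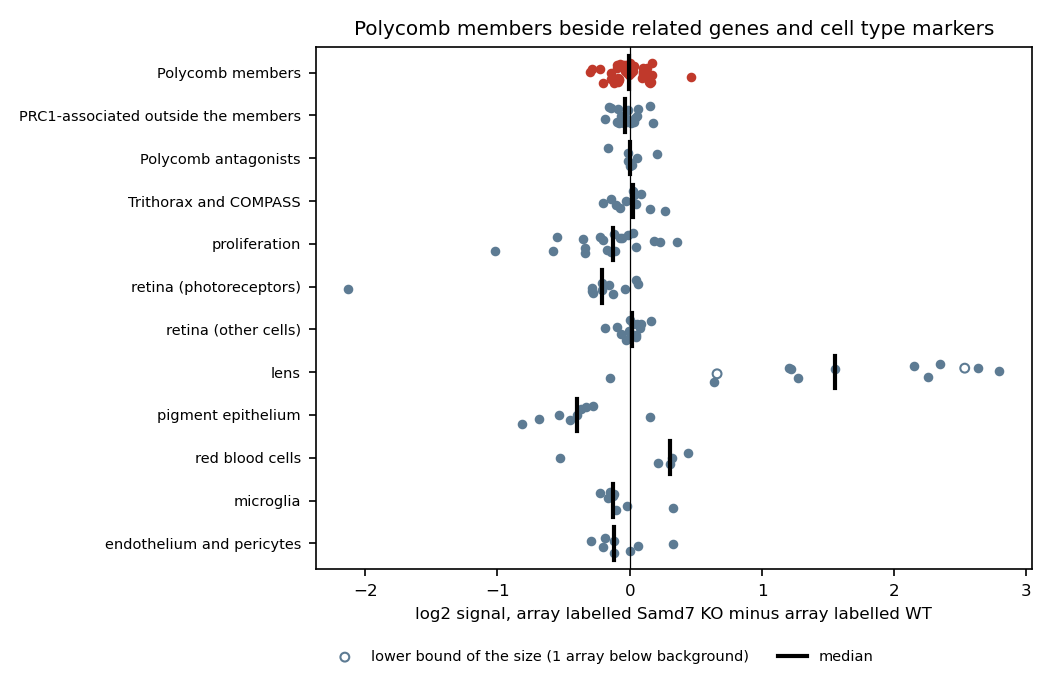
Log2 difference (horizontal axis, KO-labelled minus WT-labelled array) of each measured gene in the Polycomb set, in 3 related gene lists and in lists of cell type markers, with black bars at the medians and open circles for genes above background on 1 array only. The Polycomb set, the related lists and the markers of other retinal cells stay close to 0, whereas the lens markers reach 2.80 and the pigment epithelium markers -0.81. The lowest proliferation gene is Top2a at -1.02 and the lowest photoreceptor marker is Gnat1 at -2.13.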

How the data were processed

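The authors deposited 1 scanner file per array, whose processed signals are linear intensity values written by Agilent Feature Extraction 11.5.1.1 (protocol GE1_1105_Oct12), per the file headers. Per the file headers the design was made on mm9. The arrays shared 1 slide and scan time, so the slide does not separate the groups. The authors' deposited value table holds the same intensity values times a constant per array (log2 column medians 6.73 KO and 6.75 WT), by a rule not given in the sources used here, and served as an alternative.

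Here each array was scaled to its 75th percentile over 59305 non-control spots, outlier-flagged spots were left out, and log2 values were taken. Probes were named through their unversioned transcript accession in RefSeq (GRCm38.p6): 28330 probes received a single symbol and 27347 none. Each gene was represented by its brightest probe. Genes above background on 1 array only entered as bounds. Errors came from the software's spot error and from 432 probes with repeated spots. Values were computed with Python 3.11.15 and limma 3.58.1 (normexp, offset 50), and the counting step was tested on simulated data. Every member is named. Of each other list, the rule allowed the 2 highest, the 2 lowest and all genes at least 1.5-fold apart to be named. Max, Tfdp1, Mip, Lim2, Xist and Ddx3y were otherwise chosen for their role, after their values had been seen. The members and lists were chosen with earlier results of these data known.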

Additional observations from a re-analysis of the deposited data

How the results depend on the processing

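E2f6 passed a log2 difference of 0.32 under every setting run, and no other member measured above background did, apart from Mtf2 with averaged probes. The count of members higher by at least 0.32 was 2 with no filter, which adds Cbx7, and 2 with the mean over all probes, which adds Mtf2 (0.55) through its probe below background. At 1.5-fold the higher count was 1 with no filter and 0 under the other settings. In place of 1.5-fold, a threshold of 0.32 gave 1 higher, 2 times the scanner error gave 1 higher, and 2 times the repeated-spot SD gave 3 higher and 4 lower. The median of the complex 2 accessory genes moved to 0.099 with the mean over probes, where it was 0.009 with the brightest probe, and the other subgroup medians moved by less than the repeated-spot SD. The Samd7 difference stayed between 1.78 and 1.82. Of 273 recomputed member differences, 7 moved by over the repeated-spot SD, 6 with the mean over probes and 1 under normexp. The sign changed for 9 of 39 members, none past 0.18. The median of all named genes lay between -0.05 and 0.009. Over all named genes, 472 were at least 1.5-fold higher and 510 lower; the counts were 266 and 174 under normexp (on median signals), 333 and 293 for probes above background on both arrays, and 1129 and 1320 with no filter. The error rules, the signal range of the second background and the split at a signal of 0 were added once the data had been seen. No paired analysis was possible because the design holds a single array per genotype, and no replicate could be left out. With single spots per probe, differences under about 0.20 lie within the scanner error.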
